A study of Mus musculus with 12 samples.

Results

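The 38 genes described here run or restrain the cell cycle, and they were chosen by name: every member is a row of all 12 deposited tables, out of 23923 genes with a usable symbol. They were read by role as 11 genes of DNA replication, 13 genes of mitosis, 9 genes that drive G1 and entry into S phase, and 5 brakes (Rb1, Cdkn1a, Cdkn1b, Cdkn2a and Cdkn2c). RNA was sequenced from the tibialis anterior, a fast-twitch muscle of the lower leg, of 12 mice aged 6 weeks, male by the study's account, on a mixed C57BL6/J;129S1/SvImJ background, with 1 library per mouse. The 6 controls were Myf6 cre/+; Smyd1 flox/+ and the 6 Smyd1 conditional knockouts (CKO) were Myf6 cre/+; Smyd1 flox/-, and the study's methods give mice of both kinds a Cre-dependent YFP reporter at Rosa26. Every animal therefore carried Cre at the Myf6 locus, which the study used to delete Smyd1 in muscle fibers after their differentiation. The controls carried 1 floxed Smyd1 allele, open to the same deletion, and 1 normal allele. The question put to these genes was whether the CKO muscle held more proliferating precursors than the control muscle.

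A cell that divides passes through G1, copies its DNA in S phase and separates the copies in mitosis, and each step runs on its own genes, many of which are transcribed only while the cell cycles. Mature myofibers have left the cycle for good, so the dividing cells of a resting muscle are found among its mononuclear cells, such as satellite cells, fibroblasts, endothelium and immune cells. Cyclin-dependent kinase inhibitors and the retinoblastoma protein hold cells out of the cycle, and in muscle they also take part in differentiation. In whole-tissue RNA, fewer cells of a type and less RNA per cell cannot be told apart.

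The promoters of these genes carry short elements that mark their phase. The cell-cycle genes homology region (CHR) is bound by complexes that switch genes of G2 and mitosis, the CCAAT box is bound by NF-Y, and E2F sites are typical of genes of G1 and S phase. Promoter windows running from 250 bases before to 50 bases after the start of transcription were taken from RefSeq (GRCm38.p6) for 31 of the 38 members. No window was used for Mcm4, Aurkb, Ccna2, Ccnd1, Ccnd2, Ccne2 and Rb1. On either strand, a CHR (TTTGAA or TTCGAA) lay in 9 of 11 windows of mitosis genes (81.8%), in 2 of 10 of replication genes and in none of the 6 of G1 genes or the 4 of brakes, against 21.7% of 27025 genes. An E2F site (TTTCCCGC or TTTGGCGC) lay in 5 of 10 windows of replication genes (50%) and in none of the 11 of mitosis genes, against 1.8% of all genes. The CCAAT box (CCAAT) lay in 10 of 11 windows of mitosis genes (90.9%) and 8 of 10 of replication genes (80%), against 41.1% of all genes. No motif of the 3 is contained in another. These matches are descriptions of the windows and show no binding in this muscle. The windows below show the CHR, in capitals, in 5 mitosis genes whose levels are described next, each 5′ to 3′ on the strand of its gene.
Mki67 (chr7:135716462-135716487, minus strand): gccgttttggTTTGAAtcgggcgggc
Top2a (chr11:99024294-99024319, minus strand): cggtcttttgTTCGAAtaaaagacga
Cdk1 (chr10:69352968-69352993, minus strand): gattggctccTTTGAAcgtctacgtg
Ccnb2 (chr9:70421706-70421731, minus strand): gggactagaaTTTGAAaataagactg
Cdc20 (chr4:118437346-118437371, minus strand): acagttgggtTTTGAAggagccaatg
The first capital lies at -98 from the start in Mki67, -120 in Top2a, -71 in Cdk1, -167 in Ccnb2 and -18 in Cdc20. Further CHR matches lie at -116 in Mki67 and at -179, -140 and -23 in Top2a. Matches close to the start or past it were not listed. The next windows each show 1 E2F site, in capitals, in 3 replication genes, at -110 in Mcm6, -149 in Mcm5 and -138 in Cdc6. Mcm6 holds another at -47.
Mcm6 (chr1:128359798-128359825, minus strand): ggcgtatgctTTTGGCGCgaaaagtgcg
Mcm5 (chr8:75109350-75109377, plus strand): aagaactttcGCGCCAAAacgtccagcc
Cdc6 (chr11:98908003-98908030, plus strand): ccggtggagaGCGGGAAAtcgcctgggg

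**Figure D1:**
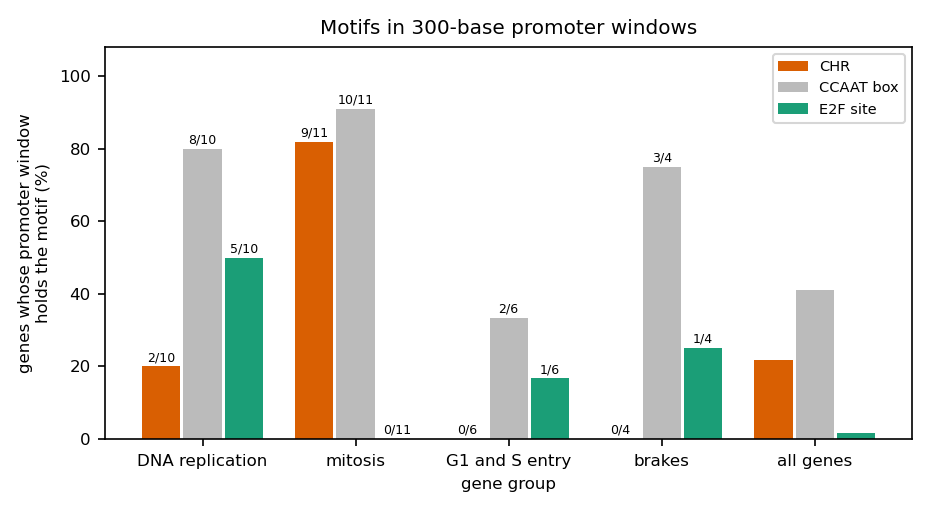
The vertical axis gives the percentage of genes whose RefSeq promoter window holds a motif, for the 4 groups of members and for all genes, and the numbers over the bars give genes holding it out of genes with a window. The CHR bar stands at 81.8% for mitosis genes against 21.7% of all genes, and the E2F bar at 50% for replication genes against 1.8%.

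The tables hold 1 FPKM per gene, a read density corrected for the length of the transcript and the depth of the library, so that levels can be compared between genes. The steps between low FPKM, each the worth of 1 read, gave depths from 10.6 M (mega) reads in CKO 5 to 19.1 M reads in CKO 1, with means of 13.1 ± 2.07 M reads in the controls and 14.2 ± 3.21 M reads in the CKO (SD, n = 6 each), with no difference found by an exact permutation test (two-sided p = 0.524). Smyd1 itself ran from 32.9 to 47.1 FPKM in the controls (median 34.9) and from 27.8 to 39.9 in the CKO (median 33.5). Its log2 difference was -0.13 (SE 0.12, limma adjusted p = 0.545), so the RNA level of the whole gene did not set the groups apart and CKO below means the libraries labelled CKO. At the protein level, the study found no detectable SMYD1 in CKO tibialis anterior by western blot. As markers of the tissue, Ckm lay between 2744 and 5961 FPKM and Acta1 between 3226 and 4982 in the 12 libraries. Over the 12695 genes that reached 0.1 FPKM in at least 6 libraries, the median log2 difference between CKO and control was 0.18 and 77.9% of the differences were above 0. Scaling each library by median ratios brought that median to 0.01, and turned the split of all genes at an unadjusted p below 0.05 from 2300 higher and 224 lower to 841 higher and 944 lower.

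The members were scarce transcripts. No member passed 7.83 FPKM in any library, and the highest value of a mitosis gene was 1.69 FPKM. Of the 38 members, 24 were above 0 in all 12 libraries and 18 reached 0.1 FPKM in all of them, while 14 were listed at 0 in at least 1 library. The number of members at 0.1 FPKM or more was 23 to 28 in the controls (median 25.5) and 20 to 35 in the CKO (median 27). CKO 2, with 35, and CKO 1, with 33, held the most, and CKO 3, with 20, the fewest, so the CKO mice spanned the controls on both sides. FPKM could be turned back into whole reads for 32 members, with at most 0.1 read of deviation, and 9 of these had fewer than 30 reads over all 12 libraries together. Counting error covers only part of the error at these depths, and a count of 0 allows up to 3 reads.

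**Figure D2:**
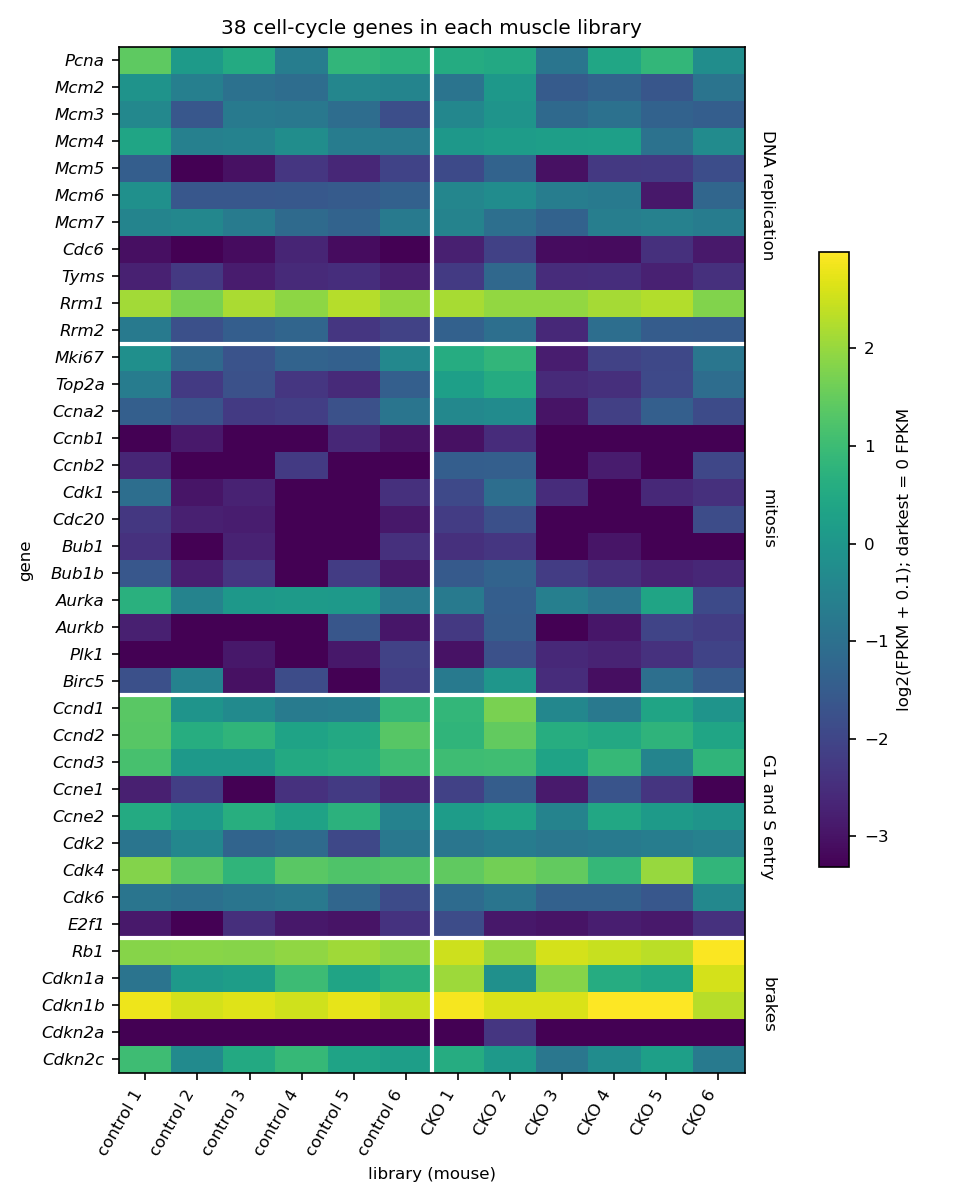
Each row is 1 of the 38 members in order of role, each column is 1 library, and the colour gives log2(FPKM + 0.1), with the darkest colour at 0 FPKM. Most mitosis genes are brightest in the columns CKO 2 and CKO 1, Cdkn2a is dark in 11 of 12 columns, and Rrm1, Rb1 and Cdkn1b are bright throughout.

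In the test across all genes (limma on log2(FPKM + 0.1), CKO minus control), 25 members could be tested and 13 fell under the filter on low values. At an unadjusted p below 0.05, 2 members were higher in the CKO, Rb1 and Cdkn1a, where 18.1% of all genes tested were higher. At the same threshold 2 members were lower, Aurka and Cdkn2c, where 1.76% of all genes were lower. After Benjamini-Hochberg adjustment over all genes, 1 member was called higher, Rb1, where 2.02% of all genes were called higher, and none was called lower, where the background was 0.268%. Both Rb1 and Cdkn1a restrain the cycle, as does Cdkn2c, and Aurka is the 1 of the 4 that drives division. With no filter, Plk1 also passed the unadjusted threshold, while Cdkn2c did not. The median log2 difference was 0.10 over the 25 members tested, against 0.18 over all genes tested. With no filter, it was 0.18 over the 38 members and 0.13 over 17922 genes. The 6 CKO values and the 6 control values overlapped in all 38 members. The share of all genes that overlap was not counted, so this says nothing particular to the members.

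**Figure D3:**
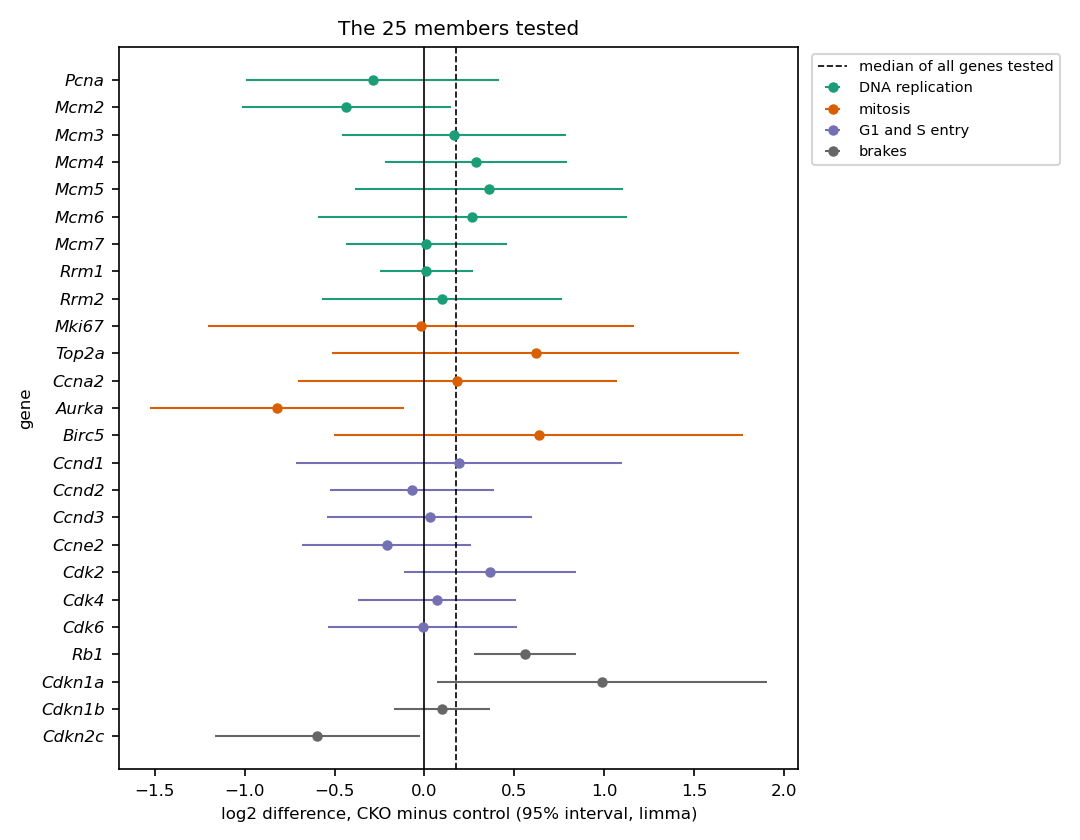
Points give the log2 difference, CKO minus control, of the 25 members tested, bars give the 95% interval from limma, and the dashed line marks the median of all genes tested, 0.18. The intervals of Rb1 and Cdkn1a lie above 0, those of Aurka and Cdkn2c below 0, and those of the other 21 members cross 0.

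Mki67 and Top2a, which mark cycling cells, differed more between mice of the CKO group than between the groups. Mki67, the gene of the Ki-67 antigen that coats mitotic chromosomes and is the usual stain for cycling cells, ran from 0.204 to 0.790 FPKM in the controls (median 0.320) and from 0.0424 to 1.69 FPKM in the CKO (median 0.309). CKO 2 (1.69 FPKM, 199 reads) and CKO 1 (1.40 FPKM, 269 reads) lay above every control, and CKO 3 (0.0424 FPKM, 6 reads), CKO 4 and CKO 5 lay below every control. The log2 difference of Mki67 was -0.02 (SE 0.56, 95% interval -1.20 to 1.17, limma adjusted p = 0.990) and the interval spans more than 1 log2 unit to each side of 0. Top2a, the topoisomerase that untangles replicated chromosomes, ran from 0.0697 to 0.532 FPKM in the controls (median 0.154) and from 0.0682 to 1.38 FPKM in the CKO (median 0.269). Here too CKO 2 (1.38 FPKM, 84 reads) and CKO 1 (1.07 FPKM, 107 reads) lay above every control, control 1 was the highest control, and CKO 3 and CKO 4 were at the level of the lowest controls. The log2 difference of Top2a was 0.62 (SE 0.53, 95% interval -0.51 to 1.75, limma adjusted p = 0.523). Ccna2, cyclin A2, which acts in S phase and early mitosis, ran from 0.109 to 0.443 FPKM in the controls and from 0.0267 to 0.724 FPKM in the CKO, again with CKO 2 and CKO 1 highest and CKO 3 lowest. Birc5, survivin, a part of the chromosomal passenger complex, ran from 0 to 0.594 FPKM in the controls and from 0.0175 to 0.903 FPKM in the CKO, with CKO 2 highest. The log2 differences of Ccna2 (0.18, SE 0.42) and Birc5 (0.63, SE 0.53) did not pass the test.

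The same mouse stood out gene after gene. CKO 2 held the highest value of the 12 libraries in 12 of the 13 mitosis genes, and CKO 1 was among the 3 highest in 9 of them and control 1 in 6. CKO 3, CKO 4 and control 3 were among the 3 highest in none. Over the 11 mitosis genes with recovered reads, the sum per M reads of depth was 29.2 in CKO 2, 23.3 in CKO 1 and 16.3 in control 1. The other controls lay between 5.52 and 10.4 and the other CKO mice between 2.63, in CKO 3, and 8.47. CKO 1 was the deepest library, whereas CKO 2, at 11.7 M reads, was among the shallower ones. Ccnb2 (cyclin B2) was above 0 in 2 controls, at 0.0600 and 0.111 FPKM, and in 4 CKO mice, with 0.272 FPKM in CKO 1 and 0.277 in CKO 2. Ccnb1 (cyclin B1) gave 7 reads in all 12 libraries and reached at most 0.0739 FPKM, in CKO 2. Cdk1, the kinase that both cyclins activate, lay at 0.388 FPKM in control 1 and 0.389 in CKO 2, and at 0.165 FPKM or less in the other 10 libraries.

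The checkpoint and kinase genes of mitosis were nearer still to the limit of detection. Cdc20, which activates the anaphase-promoting complex, gave 5 reads over the 6 controls and 12 over the 6 CKO, 4 each in CKO 1, CKO 2 and CKO 6. Bub1, a kinase of the spindle checkpoint, gave 13 and 14 reads, and its relative Bub1b gave 24 and 46. Aurkb (Aurora B) gave 8 reads over the controls and 17 over the CKO, and Plk1 (Polo-like kinase) gave 7 and 16. These 5 genes, Ccnb1, Ccnb2 and Cdk1 were not tested because fewer than 6 libraries reached 0.1 FPKM. In a fit with no filter on low values, Plk1 had a log2 difference of 0.55 (SE 0.25, limma unadjusted p = 0.0453, adjusted p = 0.304).

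Aurka, the Aurora A kinase of the spindle poles, did not follow the order of mice of the other mitosis genes. It ran from 0.507 to 1.51 FPKM in the controls (median 0.943) and from 0.165 to 1.19 FPKM in the CKO (median 0.469). CKO 1, CKO 2, CKO 4 and CKO 6 lay below the lowest control, CKO 3 lay within the controls, and CKO 5 exceeded every control but 1. The mean was 0.917 ± 0.353 FPKM in the controls and 0.521 ± 0.359 in the CKO (SD, n = 6 each), a log2 difference of -0.82 (SE 0.33, 95% interval -1.53 to -0.11). Its unadjusted p of 0.0257 (limma) became 0.188 after adjustment over all genes. CKO 2, the highest library for the 12 other mitosis genes, was the second lowest for Aurka, at 0.270 FPKM. The unadjusted p rose above 0.05 without control 1 (0.0623), without CKO 2 (0.0605) and without CKO 6 (0.0668). After median-ratio scaling it fell to 0.00715 (limma), with a log2 difference of -0.97 and an adjusted p of 0.155. For Aurka it was below 0.05 in 18 of 21 alternatives.

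**Figure D4:**
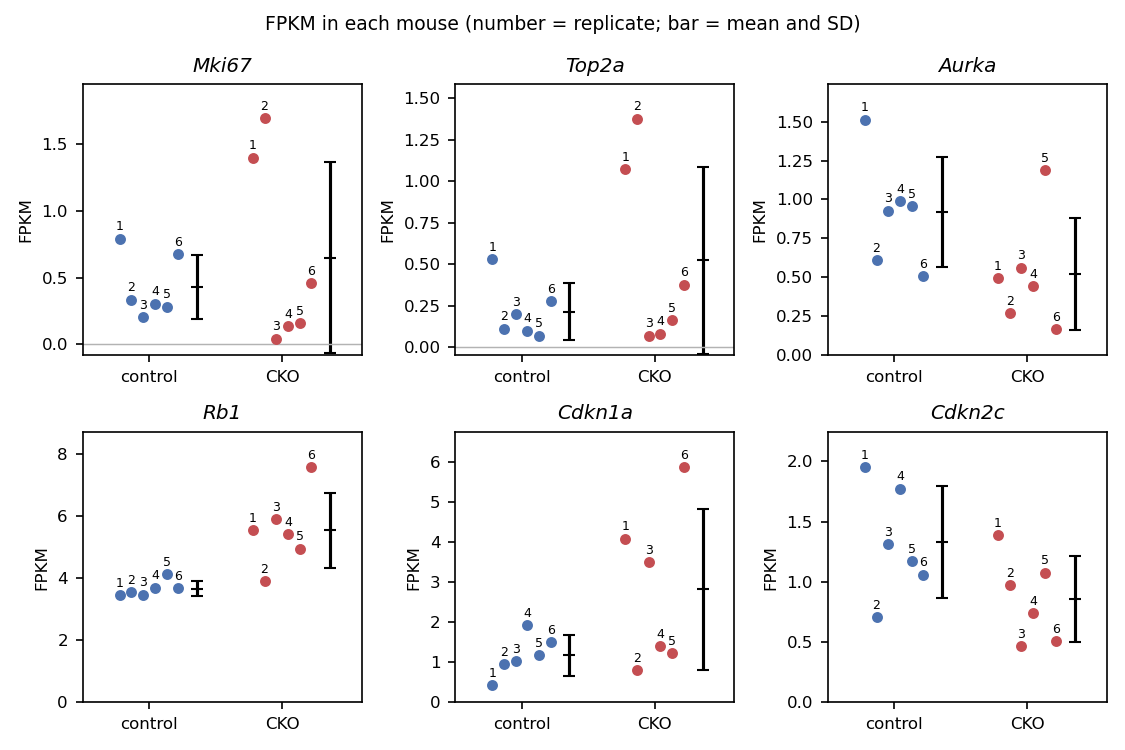
FPKM of 6 members in each mouse, with the replicate number over each point and the mean and SD of each group of 6 at its right. For Mki67 and Top2a, CKO 1 and CKO 2 sit above every control and CKO 3 near 0, and for Rb1 every CKO mouse but CKO 2 sits above all controls.

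The replication genes did not separate the groups. The 6 Mcm genes of the list make up the helicase that opens DNA. Of these Mcm4 had the highest mean in both groups, 0.697 FPKM in the controls and 0.872 FPKM in the CKO. It ran from 0.519 to 1.21 FPKM in the controls (median 0.583) and from 0.419 to 1.08 FPKM in the CKO (median 0.979). Control 1 was the highest of the 12 libraries for Mcm4 and Mcm6, while CKO 2 was highest for Mcm2, Mcm3 and Mcm5. Mcm2 had the largest difference of the 9 replication genes tested, from 0.380 to 0.851 FPKM in the controls (median 0.593) and from 0.223 to 0.939 FPKM in the CKO (median 0.368). Here 3 CKO mice lay below every control and CKO 2 above every control, and the log2 difference was -0.43 (SE 0.27, limma adjusted p = 0.380). Mcm6 ran from 0.227 to 0.797 FPKM in the controls and from 0.0324 (1 read, CKO 5) to 0.737 FPKM in the CKO. Mcm3 (log2 difference 0.17), Mcm4 (0.29), Mcm5 (0.36), Mcm6 (0.27) and Mcm7 (0.01) did not pass the test, with unadjusted limma p from 0.246 for Mcm4 to 0.961 for Mcm7. The unadjusted limma p fell below 0.05 without CKO 5, the mouse with 1 read of Mcm6, for Mcm6 (0.0373, log2 difference 0.64) and Mcm4 (0.0436, log2 difference 0.46). For Mcm2 it fell below 0.05 without CKO 2 (0.0124, log2 difference -0.65) and after median-ratio scaling (0.0481, log2 difference -0.58). None of these passed after adjustment. Pcna, the sliding clamp of the polymerase, ran from 0.542 to 2.57 FPKM in the controls (median 1.43) and from 0.452 to 1.72 FPKM in the CKO (median 1.26), with control 1 highest.

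Of the 2 subunits of ribonucleotide reductase, which makes deoxynucleotides, Rrm1 was far above Rrm2 in every library. Rrm1 lay between 3.18 and 4.75 FPKM in the controls and between 3.35 and 4.73 FPKM in the CKO, the narrowest spread of the group, with a log2 difference of 0.01 (SE 0.12, 95% interval -0.25 to 0.27). Rrm2, the subunit made in S phase, lay between 0.10 and 0.509 FPKM in the controls and between 0.0653 and 0.392 FPKM in the CKO. Thymidylate synthase (Tyms) gave 19 reads over the controls and 38 over the CKO, of which CKO 2 alone gave 15. Cdc6, which loads the helicase onto DNA, gave 6 reads over the controls and 19 over the CKO, with 7 in CKO 2. Neither Tyms nor Cdc6 reached the filter, and with no filter their limma adjusted p were 0.494 and 0.367.

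The D cyclins and Cdk4 were among the most abundant drivers. Ccnd1, cyclin D1, ran from 0.517 to 2.51 FPKM in the controls (median 0.792) and from 0.488 to 3.18 FPKM in the CKO (median 1.03). It was highest in CKO 2 (3.18 FPKM), then in control 1 (2.51), control 6 (1.74) and CKO 1 (1.71), and the log2 difference was 0.19 (SE 0.43, limma adjusted p = 0.827). Ccnd2 lay between 1.17 and 2.65 FPKM and Ccnd3 between 0.620 and 2.12 FPKM in the 12 libraries, with log2 differences of -0.07 (SE 0.22) and 0.03 (SE 0.27). Cdk4, a partner of the D cyclins, lay between 1.63 and 3.44 FPKM in the controls and between 1.69 and 3.91 FPKM in the CKO, and Cdk6, the other partner, between 0.170 and 0.667 FPKM in all. Cdk2, the kinase of S phase entry, ran from 0.159 to 0.652 FPKM in the controls (median 0.398) and from 0.459 to 0.580 FPKM in the CKO (median 0.508). All 6 CKO mice lay above the control median for Cdk2, yet inside the range of the controls, and its log2 difference of 0.37 (SE 0.22) had an adjusted p of 0.372 (limma). Without control 2 the log2 difference of Cdk2 was 0.50, with an unadjusted p of 0.0351 and an adjusted p of 0.272 (limma). Ccne2 was at 0.593 to 1.57 FPKM in the controls and 0.605 to 1.27 in the CKO, while its relative Ccne1 gave 11 reads over the controls and 21 over the CKO. E2f1, the transcription factor released by Rb1, gave 10 reads over the controls and 17 over the CKO, 9 of them in CKO 1.

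A score per mouse, the mean over the 33 drivers of log2(FPKM + 0.1) centred on the mean of each gene, lay between -0.24 and 0.42 in the controls and between -0.41 and 0.76 in the CKO. CKO 2 (0.76), CKO 1 (0.45) and control 1 (0.42) were highest, and CKO 3 (-0.41) was lowest. The group means were -0.08 ± 0.26 and 0.08 ± 0.44 (SD, n = 6 each), a difference of 0.16 that is smaller than either SD. For the mitosis genes alone the scores reached 1.09 in CKO 2 and 0.71 in CKO 1 against 0.41 in control 1, and fell to -0.57 in CKO 3 and -0.50 in CKO 4. For the replication genes the scores of CKO 2 (0.59) and control 1 (0.52) were the highest and CKO 3 (-0.35) the lowest. CKO 2, CKO 1 and control 1 were therefore the highest mice, and CKO 3 the lowest, for both groups of genes, with both genotypes at the top. Other mice changed places, and CKO 4, near the bottom for the mitosis genes, had a replication score of 0.09.

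**Figure D5:**
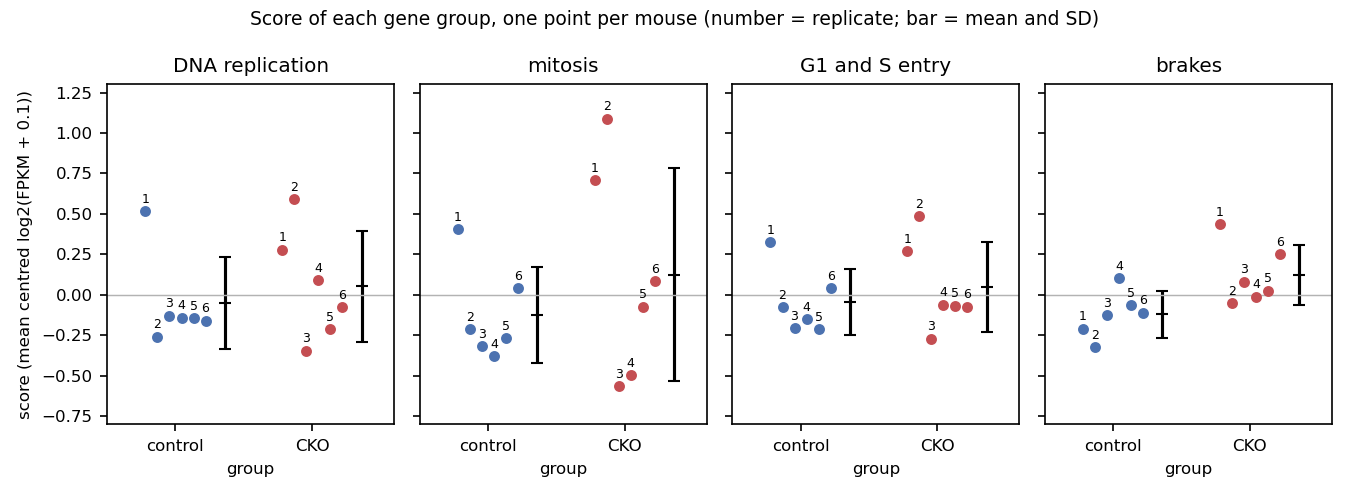
Score of each group of members (mean of log2(FPKM + 0.1) centred on each gene's mean, vertical axis) in each mouse, with the replicate number over each point and mean and SD at the right of each group of 6. In the mitosis panel CKO 2 (1.09) and CKO 1 (0.71) lie highest and CKO 3 (-0.57) and CKO 4 (-0.50) lowest, and in the first 3 panels control 1 is the highest control.

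The brakes Rb1 and Cdkn1b, were among the most abundant members. Rb1, the retinoblastoma protein that holds E2F factors inactive, ran from 3.46 to 4.14 FPKM in the controls (median 3.62) and from 3.92 to 7.59 FPKM in the CKO (median 5.49). Every CKO mouse but CKO 2 lay above every control, and CKO 6 was the highest. The mean rose from 3.67 ± 0.250 FPKM to 5.56 ± 1.21 FPKM (SD, n = 6 each), a log2 difference of 0.56 (SE 0.13, 95% interval 0.28 to 0.85, limma adjusted p = 0.0413). The call is close to the threshold: it was kept without control 1, CKO 2 or CKO 5 and was lost without any of the other 9 mice, with adjusted p of 0.0679 to 0.101. After median-ratio scaling the log2 difference of Rb1 was 0.38 with an adjusted p of 0.208 (limma).

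Cdkn1a, the inhibitor p21, a target of p53 that is also induced in differentiating muscle, ran from 0.436 to 1.92 FPKM in the controls (median 1.11) and from 0.806 to 5.87 FPKM in the CKO (median 2.46). CKO 6 (5.87 FPKM), CKO 1 (4.08) and CKO 3 (3.50) lay above every control, and CKO 2, CKO 4 and CKO 5 lay within the controls. In reads, CKO 1 gave 149, CKO 6 gave 143 and CKO 3 gave 94, against 9 to 48 in the controls and 18 to 45 in the other CKO mice. The log2 difference was 0.99 (SE 0.43, 95% interval 0.07 to 1.91), with an unadjusted p of 0.0363 and an adjusted p of 0.217 (limma). The same 3 mice had the highest sums of 8 transcripts of slow fibers, 322 FPKM in CKO 6, 155 in CKO 1 and 93.0 in CKO 3, against 22.1 to 57.6 in the controls and 30.3 to 40.9 in the other CKO mice, and the part of fiber type in the level of Cdkn1a was not tested. The unadjusted p rose above 0.05 without any 1 of CKO 1, CKO 3, CKO 6, control 1, control 2 and control 3 (0.0557 to 0.0958) and after median-ratio scaling (0.0850).

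Cdkn2c, the inhibitor p18, ran from 0.708 to 1.95 FPKM in the controls (median 1.24) and from 0.469 to 1.39 FPKM in the CKO (median 0.855). CKO 3 and CKO 6 lay below every control and the other 4 CKO mice within them. The log2 difference of Cdkn2c was -0.60 (SE 0.27, 95% interval -1.17 to -0.03), with an unadjusted p of 0.0416 and an adjusted p of 0.231 (limma). The unadjusted p rose above 0.05 without any 1 of CKO 3, CKO 4, CKO 6, control 1, control 3, control 4 and control 5 (0.0521 to 0.103). After median-ratio scaling it fell to 0.00752 (limma), with a log2 difference of -0.76 and an adjusted p of 0.159. For Cdkn2c it was below 0.05 in 12 of 20 alternatives. Cdkn1b, the inhibitor p27, was the most abundant member, at 5.47 to 7.0 FPKM in the controls and 4.86 to 7.83 FPKM in the CKO, with a log2 difference of 0.10 (SE 0.13, limma adjusted p = 0.683). Cdkn2a, which encodes p16 and p19Arf and is a common marker of senescent cells, was listed at 0 in 11 of the 12 libraries. A single read in CKO 2 gave 0.101 FPKM, and the 3 reads that a count of 0 allows correspond to 0.184 FPKM in CKO 1, the deepest library, and to 0.331 FPKM in CKO 5. No change of Cdkn2a was detectable at this depth.

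Further genes of the same pathways and of cell types were read from longer lists, whose counts at an unadjusted p below 0.05 stand beside 18.1% of all genes higher and 1.76% lower. Of 37 further replication genes, 32 were tested, 2 were higher and none was lower at an unadjusted p below 0.05, with a median log2 difference of 0.15 against 0.18 over all genes. The 2 were Rpa1, which coats single-stranded DNA (log2 difference 0.38, limma adjusted p = 0.0672), and Dnmt1, the maintenance DNA methyltransferase (0.34, adjusted p = 0.201). Of 39 further mitosis genes, 21 were tested, none was higher and 1 was lower, Cks1b, a subunit of cyclin-dependent kinases (-0.99, limma adjusted p = 0.184), and the other of the 2 with the smallest p was Kif20a (0.50, adjusted p = 0.352). The median was 0.14. Of 22 further regulators of G1 and S entry, 19 were tested, 1 was higher and 3 were lower, led by Tfdp1, the partner of E2F factors (-0.39, limma adjusted p = 0.111), and Jun (-0.61, adjusted p = 0.142), with a median of 0.14. Of 31 further brakes and targets of p53, 28 were tested, 5 were higher and 4 were lower, against 18.1% and 1.76% of all genes, with a median of 0.19, and no gene of these 4 lists passed the adjusted threshold. Trp53inp1 (log2 difference 0.68, limma adjusted p = 0.0582) and Gadd45b (-1.12, adjusted p = 0.0613), both induced by p53 or stress, had the smallest p and opposite directions.

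Histone genes that are expressed with DNA replication followed the same mice as the mitosis genes in part. Of 34 such genes, 25 were tested, 4 were higher at an unadjusted p below 0.05 and none after adjustment, with a median log2 difference of 0.37 against 0.18 over all genes. Their summed level was 110 FPKM in CKO 2, 105 in CKO 1, 104 in CKO 3 and 97.5 in control 1, against 53.6 to 62.7 in the other controls and 61.9 to 73.3 in the other CKO mice. CKO 3 was high in this sum but not in the score that weights the genes alike, which was 0.91 in CKO 2, 0.66 in CKO 1 and 0.65 in control 1 and, at -0.34, was lowest of the CKO mice in CKO 3. Hist1h4h (log2 difference 0.72, limma adjusted p = 0.114) and Hist1h4d (0.66, adjusted p = 0.186) had the smallest p. Reads that fit several places were discarded by the authors, so these near-identical genes are uncertain.

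Markers of the mononuclear cells that could hold dividing cells were read from lists in the same way. The summed level of 10 fibroblast genes was 869 FPKM in control 1, 522 in CKO 1 and 516 in CKO 2, against 239 to 297 in the other controls and 312 to 379 in the other CKO mice. The sum of 12 macrophage genes was 53.2 FPKM in control 1, 32.9 in CKO 1 and 29.0 in CKO 2, against 13.7 to 23.0 and 18.2 to 26.0. The 3 mice with the highest proliferation score therefore also had the highest sums of both lists, and the part of these cells in the level of the mitosis genes was not tested. Of the fibroblast genes, 3 of 10 tested were higher at an unadjusted p below 0.05, against 18.1% of all genes, led by Pdgfra (log2 difference 0.67, limma adjusted p = 0.145) and Fbln1 (0.94, adjusted p = 0.165). Of the macrophage genes, none of 11 passed, with Csf1r (0.48, adjusted p = 0.322) and C1qb (0.79, adjusted p = 0.409) the nearest. The sum of 9 endothelial genes was highest in CKO 2, at 62.0 FPKM, against 41.5 to 53.4 in the controls and 43.0 to 50.4 in the other CKO mice, and none of the 9 passed, Cdh5 (0.21) and Vwf (0.20) included.

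Satellite cells are the precursors that the question is about. Of 16 satellite cell and myoblast genes tested, 9 were higher and none was lower at an unadjusted p below 0.05, against 18.1% and 1.76% of all genes, with a median log2 difference of 0.54 against 0.18 over all genes. Itga7, an integrin of satellite cells and fibers (log2 difference 1.03, limma adjusted p = 0.0149), passed the adjusted threshold, and Myf5, a myogenic determination factor, followed (1.08, adjusted p = 0.0654). Their sum lay between 20.8 and 38.9 FPKM in the controls and between 35.5 and 54.5 FPKM in the CKO, highest in CKO 1 (54.5), CKO 6 (54.2) and CKO 3 (46.1), and CKO 2, the highest mouse for the mitosis genes, was at 37.0. Pax7, the factor that defines satellite cells, lay between 0.0649 and 0.386 FPKM in the controls and between 0.220 and 0.526 FPKM in the CKO.

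Neutrophil, marrow and lymphocyte genes were near 0, and erythroid genes were not. Neutrophil and marrow genes summed to at most 1.04 FPKM, with Mpo and Elane at 0 in all libraries, and 2 were tested, S100a9 (log2 difference 0.57) and S100a8 (0.62), without passing. Lymphocyte genes summed to at most 0.364 FPKM, with Cd3e above 0 in 4 libraries, and none could be tested. Erythroid genes summed to 13.0 to 52.0 FPKM in the controls and 24.5 to 40.9 in the CKO, and none of 4 passed, Hbb-b2 (0.47) and Alas2 (0.16) included. The next counts are at an unadjusted p below 0.05, where 18.1% of all genes were higher and 1.76% lower. Of 7 Schwann cell genes 3 were higher, led by Mbp (0.44, limma adjusted p = 0.220). Of 5 adipocyte genes tested 3 were higher, with Retn (1.80, limma adjusted p = 0.0322) past the adjusted threshold and Cfd next (1.39, adjusted p = 0.0564). Retn was near the floor, at 0 to 0.159 FPKM in the controls (median 0) and 0.147 to 1.23 FPKM in the CKO. The CKO values, all above 0.1 FPKM, carried Retn past the filter, so its call is not independent of the filter. The 7 adipocyte genes summed to 94.7 to 308 FPKM in the controls, highest in control 1, and to 96.2 to 211 FPKM in the CKO. Of 12 fast fiber genes 3 were higher and 1 was lower, with a median log2 difference of -0.25 over the 12 against 0.18 over all genes. The myosin Myh1 (1.05, limma adjusted p = 0.00733) was past the adjusted threshold and Myh4 was next (0.77, adjusted p = 0.0599). In these FPKM both are uncertain between near-identical myosin genes. The study's real-time PCR found Myh1, Myh2, Myh4 and Myh7 raised in CKO tibialis anterior. Of 8 slow fiber genes 7 were higher, with a median of 1.78, led by Atp2a2 (0.87, limma adjusted p = 0.109) and Tpm3 (1.18, adjusted p = 0.119), none after adjustment.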

How the data were processed

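The authors depleted ribosomal RNA from total RNA, aligned the reads with TopHat2 (2.0.10 in the submitters' processing notes, which name build mm9), discarded reads with several locations and deposited 1 FPKM per gene and mouse, made with Cufflinks (2.1.1). The authors' counts were not analysed here, and the 27 rows of 23950 whose symbol had turned into a date were left out. The FPKM as deposited were tested with limma 3.58.1 in R 4.3.3 on log2(FPKM + 0.1), two-sided, with an intensity trend and no block, on the 12695 genes that reached 0.1 FPKM in 6 or more libraries, and p-values were adjusted by Benjamini-Hochberg over all of them. This stands in for the authors' DESeq test on counts. On the log2(FPKM + 0.1) scale, changes of low genes are understated. Depth and reads were read from the steps of low FPKM, which gave whole reads for 71.3% of 13941 genes, and voom on those reads was an added alternative. The test was checked on simulated data.

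Every member is named. From each further list the 2 genes with the smallest p and those past the adjusted threshold of 0.05 are named, except that some are not reported here. The members and lists were chosen with earlier results of these data known. The promoter windows come from RefSeq on GRCm38.p6, another build than that of the FPKM, and no coordinates were converted. The labels do not say which animals share a litter, and p-values measure the spread between mice.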

Additional observations from a re-analysis of the deposited data

Results flagged for a closer look

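In 15 of 85 sets of 6 mice examined (each member and each score, within a group), the highest value lay apart from the other 5 by Dixon's criterion. Counting both ends, chance alone flags about 1 set in 20 if values are normally distributed, which was not tested. The scores are built from the same members, so the sets are not independent. Low counts move in steps of 1 read, so for Cdc6, Ccnb1, Aurkb, Plk1 and Cdkn2a the gap is a few reads. The values follow, with the range of the other 5 mice of the group in brackets. Control 1 had Mcm4 at 1.21 FPKM (0.519 to 0.76), Mcm6 at 0.797 FPKM (0.227 to 0.29), Cdk1 at 0.388 FPKM (0 to 0.084), a proliferation score of 0.42 (-0.24 to -0.03) and a replication score of 0.52 (-0.26 to -0.13). CKO 2 had Mcm2 at 0.939 FPKM (0.223 to 0.442), Tyms at 0.338 FPKM (0.0495 to 0.11), Ccnb1 at 0.0739 FPKM (0 to 0.0226), Ccnd2 at 2.65 FPKM (1.21 to 1.64) and Cdkn2a at 0.101 FPKM (0 in the others). Of the remaining sets, control 4 had Cdc6 at 0.0565 FPKM (0 to 0.0204), control 5 had Aurkb at 0.223 FPKM (0 to 0.0473), control 5 had Rb1 at 4.14 FPKM (3.46 to 3.71), control 6 had Plk1 at 0.136 FPKM (0 to 0.0333) and control 2 had Birc5 at 0.594 FPKM (0 to 0.19). Control 1 and CKO 2 together account for 10 of the 15. The weight limma gave control 1 in the weighted fit, 0.346, was the lowest of the 12 libraries.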

How the results depend on the processing

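At an unadjusted p below 0.05, the number of members higher in the CKO, 2 as reported, was 1 with median-ratio scaling, 1 with quantile normalization and 1 with voom on whole reads after median-ratio scaling, was 3 with no filter, where Plk1 joined, and 3 with sample weights, where Mcm4 joined, and ran from 1 to 4 when each mouse was left out in turn. The number lower, 2 as reported, was 1 with a filter at 1 FPKM, 1 with no filter and 1 with voom on whole reads, which hold other sets of genes, was 3 with median-ratio scaling and 3 with quantile normalization, where Mcm2 joined, and ran from 0 to 2 without 1 mouse. Of 12695 genes, 2300 were higher and 224 lower as reported, 841 and 944 with median-ratio scaling and 810 and 837 with quantile normalization. The split was 3704 and 318 with sample weights, and 1738 to 3428 higher and 196 to 320 lower without 1 mouse. It was 2546 and 293 of 17922 with no filter and 1690 and 161 of 7938 filtered at 1 FPKM. Of 8388 genes it was 1652 and 153 with voom, and 552 and 610 after median-ratio scaling. These small changes are no result about the members. The 1 member called higher after adjustment, Rb1, became 0 with limma without the trend, 0 with median-ratio scaling, 0 with no filter, 0 with quantile normalization and 0 with voom after median-ratio scaling, and ran from 0 to 1 without 1 mouse. Rb1 was higher in all 22 alternatives (log2 difference 0.38 to 0.65, limma adjusted p 0.0109 to 0.211) and past the adjusted threshold in 7. No member was called lower under any alternative run. The proliferation score differed by 0.02 to 0.26 without 1 mouse, by 0.04 with a pseudocount of 1 and by 0.04 after median-ratio scaling, against the reported 0.16 and the SD of 0.44 in the CKO. Over the drivers that pass the filter it differed by 0.07, and by -0.13 after quantile normalization. The causes were not tested.

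With the replicate number as a block, 0 members were called higher after adjustment and 2 higher and 2 lower before it, and Rb1 had a limma adjusted p of 0.0524. Of 12695 genes tested with that block, 2442 were higher and 250 lower before adjustment. Same-numbered mice deviated together with r from -0.0861 to 0.164, and replicates 4 and 5 but not the other 4 correlated best with their own number. The labels give no pairing, and these correlations cannot show whether same-numbered mice shared a litter or a batch.

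Log2 differences near 0 changed sign. With median-ratio scaling this held for Mcm7 (-0.14), Rrm1 (-0.17), Rrm2 (-0.019), Ccnd3 (-0.14), Cdk4 (-0.11) and Cdkn1b (-0.087). With quantile normalization it held for Mcm3 (-0.028), Mcm7 (-0.21), Rrm1 (-0.16), Rrm2 (-0.10), Ccna2 (-0.029), Ccnd1 (-0.012), Ccnd3 (-0.16), Cdk4 (-0.13) and Cdkn1b (-0.063). It held with a pseudocount of 1 for Mki67 (0.11) and with sample weights for Rrm1 (-0.011), Mki67 (0.12) and Cdk6 (0.054). The fits with voom were chosen after the data were seen. With voom on whole reads the sign changed for Cdk6 (0.040), and after median-ratio scaling for Mcm7 (-0.16), Rrm1 (-0.18), Rrm2 (-0.048), Ccnd1 (-0.040), Cdk4 (-0.14) and Cdkn1b (-0.085). Without 1 mouse the log2 difference ran from -0.093 to 0.12 for Mcm7, -0.053 to 0.063 for Rrm1, -0.062 to 0.48 for Ccna2, -0.072 to 0.25 for Ccnd3, -0.0017 to 0.30 for Mcm3, -0.095 to 0.45 for Ccnd1, -0.39 to 0.34 for Mki67, -0.17 to 0.089 for Cdk6, -0.055 to 0.18 for Cdk4, -0.21 to 0.035 for Ccnd2 and -0.045 to 0.32 for Rrm2. None of these genes passed the adjusted threshold in any of these fits. Of 523 pairs of member and alternative, 443 kept sign and side of the adjusted threshold, 65 changed sign and 15, all of Rb1, lost the call. The number of all genes called higher after adjustment was 257 as reported, ran from 84 without CKO 1 to 1067 without control 1 when 1 mouse was left out, and ran from 59 with voom after median-ratio scaling to 1400 with sample weights over the other alternatives. The median number of members detected per mouse was 25.5 at 0.1 FPKM, 33.5 above 0 and 10 at 1 FPKM or more. Depth limits the 13 members under the filter, for which a log2 difference rests on a few reads.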
